A study of Mus musculus with 26 samples.

Results

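The 10 genes followed here mark the endothelial cells of the liver, 5 of them the sinusoidal type most closely, and were measured in 26 mouse liver libraries. The 10 members were chosen by name from a count table of 47643 genes, and each was found in 1 row of it. No rule on measured values was used, but earlier results of these data were known at the time of choice. They are Stab1, Stab2, Lyve1, Clec4g and Fcgr2b, which mark the sinusoidal endothelium most closely, Pecam1, Cdh5, Kdr and Tek, which are expressed by endothelium in general, and Vwf, which marks the continuous endothelium of larger vessels.

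The libraries form 10 groups, each treated group with its own control. TCPOBOP, an agonist of the mouse nuclear receptor CAR, was compared with corn oil in 8-week-old wild-type C57BL/6J mice (2 libraries each, whole liver, fed ad libitum). The titles give 36 h after injection, whereas another label of the same samples gives 6 h. Fxr-/- Shp-/- mice, which lack the bile acid receptor Fxr (Nr1h4) and the corepressor Shp (Nr0b2), were compared with wild type (3 each, C57BL/6J, 12 weeks, whole liver, ad libitum). C3H/HeN livers taken 48 h after partial hepatectomy, the surgical removal of part of the liver, were compared with sham livers labelled 0 h (3 each, 8 to 10 weeks, ad libitum, genotype not stated in the labels). Hepatocytes isolated after a 10 h fast from wild-type C57BL/6J mice of 16 weeks were compared between a 60% high fat diet and chow (2 each). Mice carrying floxed Fxr and Shp alleles in both groups were fed a cholic acid diet or chow (3 each, C57BL/6J, 10 to 12 weeks, fasted 8 to 10 h, whole liver). No Cre driver is stated for these mice. The labels do not say whether animals were pooled or libraries made from separate animals, so p-values measure the spread between these samples only.

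Liver sinusoidal endothelial cells line the capillaries of the liver lobule. They have open pores and little basement membrane, and they remove waste molecules, immune complexes and modified proteins from blood. The scavenger receptors stabilin-1 and stabilin-2 (Stab1, Stab2), the hyaluronan receptor Lyve1, the C-type lectin Clec4g and the inhibitory Fc receptor Fcgr2b serve that uptake or binding. The cells also signal to hepatocytes through VEGF, angiopoietin, Wnt, BMP and Notch pathways, and they can take on features of continuous capillaries in diseased liver.

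In the GRCm38 build (GENCODE M21 annotation), Stab1 lies on the minus strand of chromosome 14 (31139013 to 31168641) and Stab2 on the minus strand of chromosome 10 (86841198 to 87008025). Lyve1 is on chromosome 7 (110850607 to 110863239, minus), Clec4g on chromosome 8 (3707064 to 3720651, minus) and Fcgr2b on chromosome 1 (170958617 to 170976547, minus). Pecam1 is on chromosome 11 (106654217 to 106750628, minus), Cdh5 on chromosome 8 (104101625 to 104144511, plus) and Kdr on chromosome 5 (75932827 to 75978458, minus). Tek is on chromosome 4 (94739289 to 94874976, plus) and Vwf on chromosome 6 (125546774 to 125686679, plus). All 10 are annotated as protein-coding. A small part of the exons of 4 members overlaps a gene on the opposite strand, 1.09% in Stab1 (Nt5dc2), 1.61% in Stab2 (Gm16268), 2.68% in Fcgr2b (Gm38204) and 5.93% in Clec4g (Gm16553), and whether the counting used strand is not given in the sources used here.

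Promoter windows from RefSeq (GRCm38.p6, 250 bases before to 50 bases after the gene start) matched 6 of the 10 members, namely Kdr, Stab1, Stab2, Clec4g, Fcgr2b and Tek. The windows of the stabilins are printed because these 2 scavenger receptors both rose in the knockout livers, while after hepatectomy Stab1 passed the test and Stab2 did not. Both are on the minus strand and are written 5′ to 3′ along the gene, with the letters AGGAAG, the core bound by ETS factors, or their reverse complement, in capitals. Stab1 is at chr14:31168592-31168891 and Stab2 at chr10:87007893-87008192.
Stab1: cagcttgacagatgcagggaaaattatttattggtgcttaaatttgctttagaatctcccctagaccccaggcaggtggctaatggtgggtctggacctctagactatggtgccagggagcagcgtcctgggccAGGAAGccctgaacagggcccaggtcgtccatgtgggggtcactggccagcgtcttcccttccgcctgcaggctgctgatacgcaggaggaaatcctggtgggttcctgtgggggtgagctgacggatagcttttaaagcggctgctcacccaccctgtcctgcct
Stab2: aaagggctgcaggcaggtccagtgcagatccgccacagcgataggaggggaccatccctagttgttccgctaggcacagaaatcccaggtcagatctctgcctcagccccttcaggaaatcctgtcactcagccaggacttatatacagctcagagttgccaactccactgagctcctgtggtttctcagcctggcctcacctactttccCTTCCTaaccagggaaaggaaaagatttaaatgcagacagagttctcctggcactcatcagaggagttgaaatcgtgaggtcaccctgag
Each window held 1 such match. Searched on both strands, AGGAAG occurred in 3 of the 6 member windows (Stab1, Stab2 and Clec4g) and in 35.4% of the 32851 mouse promoter windows of the same length. The GATA factor motif AGATAA occurred in 1 of the 6 (Tek) against 11.2% of all windows, and the SOX factor motif ACAATG in 1 of the 6 (Clec4g) against 12.6%. These matches are letters in a window and were not measured as binding.

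Total gene counts ranged from 13949059 to 70367874 per library, and 3 counts, the lowest level taken as detected, equalled 0.0452 to 0.219 CPM (counts scaled to library size, with TMM factors over all 26 libraries). Every member had counts in every library. The library labelled corn oil 1 stood apart from its label: Cyp2b10, the standard target of CAR, reached 3706 CPM there but 9.94 CPM in its group's other library, beside 3430 and 2988 CPM after TCPOBOP. Nr0b2 was 13.1 to 26.5 CPM in wild type and 0.558 to 1.59 CPM in Fxr-/- Shp-/- livers. Nr1h4, counted over the whole gene, was 113 to 151 CPM and 52.3 to 61.0 CPM. The share of reads that did not align uniquely was 43.2% to 44.1% in wild type and 25.5% to 26.9% in Fxr-/- Shp-/- livers, and between 16.6% and 25.1% in all other groups. No pair of replicates matched within sampling noise (the smallest chi-square per degree of freedom over 22 pairs was 7.48).

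Per kilobase of exon, Clec4g was the most abundant member in all 10 groups and Vwf the least. In sham livers the level of Clec4g was 21.4 ± 4.30 CPM per kilobase (SD, n = 3), followed by Stab2 at 7.44 ± 1.14, Fcgr2b at 7.03 ± 1.80, Kdr at 6.03 ± 1.37 and Stab1 at 5.07 ± 1.17. Cdh5 (4.99 ± 0.91), Lyve1 (4.07 ± 0.65), Pecam1 (2.42 ± 0.57), Tek (2.37 ± 0.68) and Vwf (0.287 ± 0.053) completed the order on the same scale. Only Clec4g from Stab2, Lyve1 from Pecam1 and Tek from Vwf were neighbours whose sham libraries did not overlap. In the bulk samples, fewer endothelial cells and less RNA per cell cannot be told apart.

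Across the groups, the sham livers held the highest mean CPM of Stab1, Stab2, Clec4g, Fcgr2b and Kdr. Fxr-/- Shp-/- livers held the highest of Lyve1, Pecam1 and Vwf, hepatectomy livers that of Tek, and corn oil livers that of Cdh5. Chow hepatocytes were lowest for all 10 members. Most neighbouring groups in these orders overlapped, in 6 to 8 of 9 neighbouring pairs for each member, and groups of different experiments also differ in strain, age and feeding, so these orders are a description with no test. The plot of levels by library shows this spread.

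**Figure D1:**
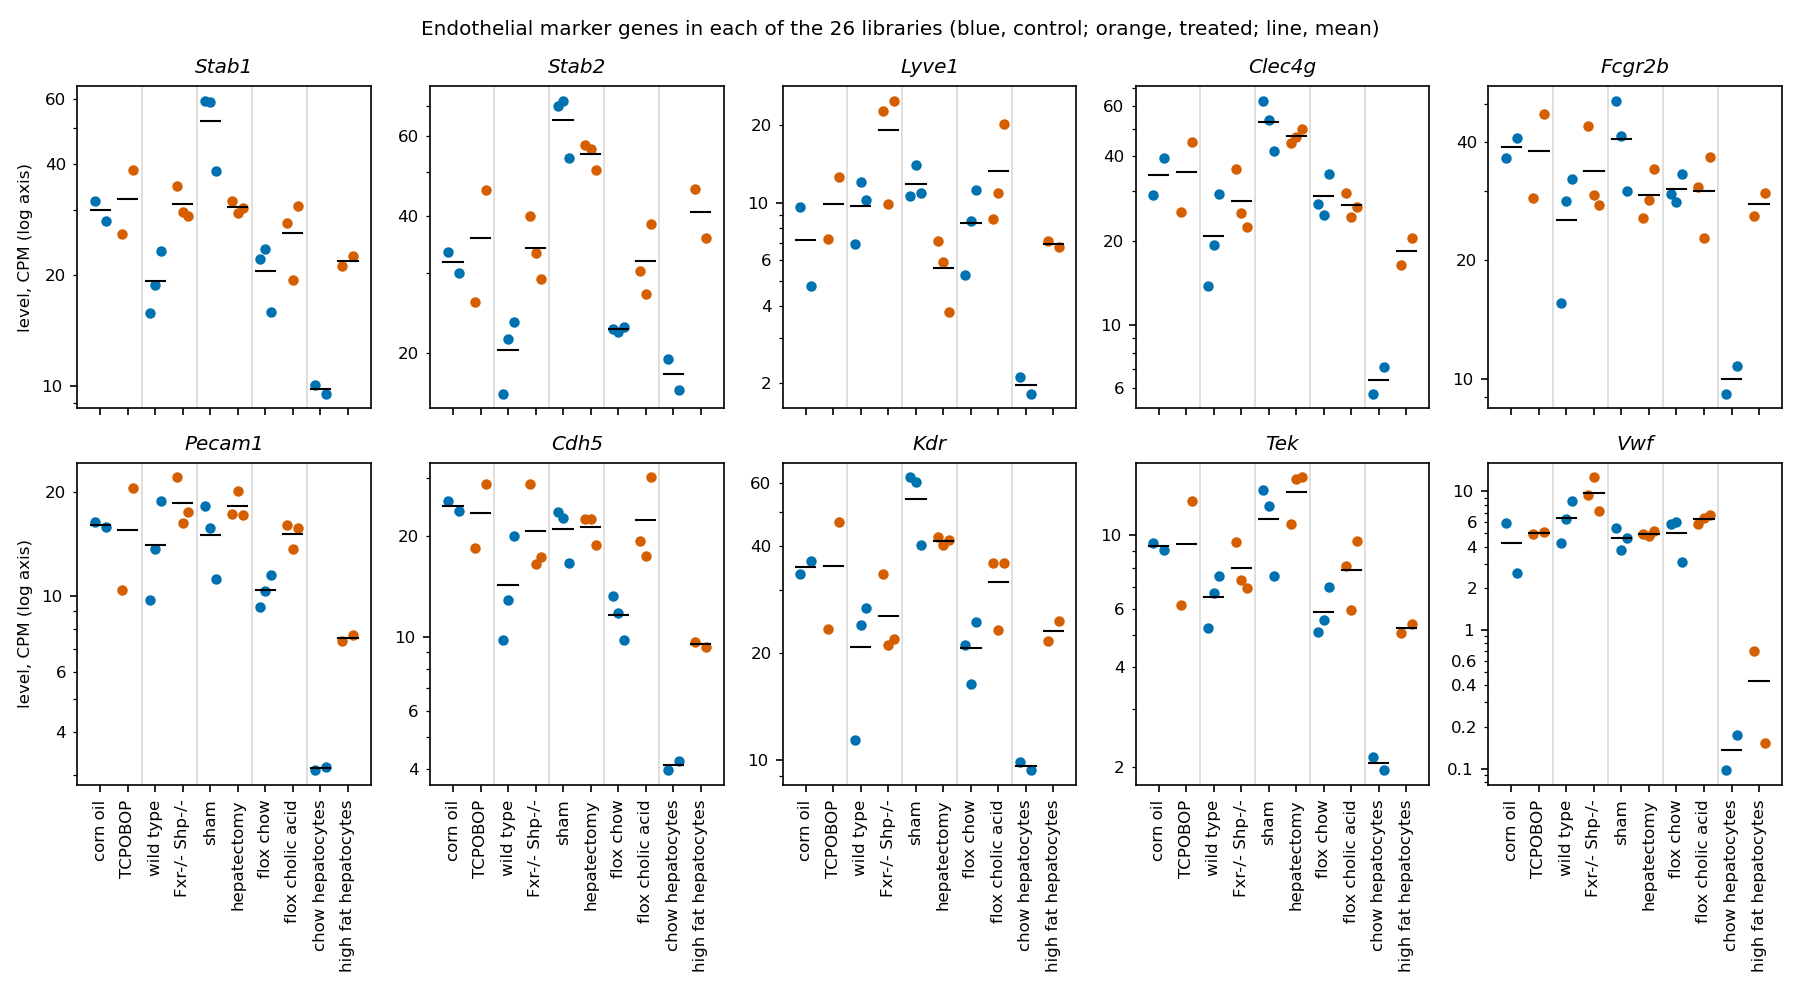
Level of each of the 10 members in CPM (log axis) in each of the 26 libraries, by group; points are libraries, lines are group means, blue marks controls and orange treated groups. Chow hepatocytes have the lowest group mean for each gene, and Stab1 and Lyve1 of the hepatectomy libraries lie below the sham libraries.

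In some groups 1 library held the lowest or highest level of most members, and in others the members split between libraries. All 10 were lowest in TCPOBOP library 1 and highest in TCPOBOP library 2. In wild type, library 1 was the lowest for all 10 and library 3 the highest for 9. Sham library 3 was the lowest for 8 members, and sham library 1 and Fxr-/- Shp-/- library 1 were each the highest for 8. Cholic acid library 2 was the lowest for 8 and library 3 the highest for 7. The members split in the other 5 groups, where no library was the lowest or the highest for more than 7, as in chow hepatocytes, where each library was the highest for 5. The summed level of the 10 members was 109 to 200 CPM in wild type and 255 to 377 CPM in sham, but 264 to 269 CPM after hepatectomy.

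The double knockout comparison asks which members differ in livers that lack Fxr and Shp. Stab1, Stab2 and Lyve1, 3 of the 5 sinusoidal members, rose, and the other 7 members did not pass the test (quasi-likelihood test of edgeR, called at a Benjamini-Hochberg adjusted p below 0.05). Of the 13473 genes tested, 40.4% were called in either direction, so 3 of 10 is a share below the background. All 10 members had a log2 fold change above 0, with a median of 0.50, beside 49.4% of all genes tested above 0 and a median of -0.01.

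Stab1 was 15.8, 18.8 and 23.2 CPM in wild type and 34.9, 29.6 and 28.9 CPM in Fxr-/- Shp-/- livers. Every knockout library was above every wild-type library, and the log2 fold change was 0.71 ± 0.15 (SE, edgeR adjusted p 0.00539). Stab2, which clears hyaluronan from blood, was 16.3, 21.4 and 23.3 CPM in wild type and 40.0, 33.1 and 29.1 CPM in the knockout. It likewise did not overlap, and its log2 fold change was 0.76 ± 0.16 (edgeR adjusted p 0.00606). These 2 calls held under each of the 7 other settings and in each of the 6 fits without 1 library.

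Lyve1, the hyaluronan receptor shared with lymphatic vessels, was 6.91, 12.0 and 10.3 CPM in wild type and 22.8, 9.91 and 25 CPM in the knockout. Knockout library 2 lay inside the wild-type range and the other two were above it. Its log2 fold change was 1.00 ± 0.33 (edgeR adjusted p 0.0410), and the call was kept in 1 of the 6 fits without 1 library, with values from 0.78 to 1.31. The members not called ranged from 0.30 ± 0.19 for Tek (edgeR adjusted p 0.230), the angiopoietin receptor, to 0.63 ± 0.28 for Vwf (edgeR adjusted p 0.0998). Pecam1 and Cdh5, the junction proteins of endothelium, had 0.43 ± 0.22 and 0.57 ± 0.28. Without wild-type library 3, the highest of its group, 6 members were called, namely Stab1, Stab2, Pecam1, Cdh5, Clec4g and Vwf.

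**Figure D2:**
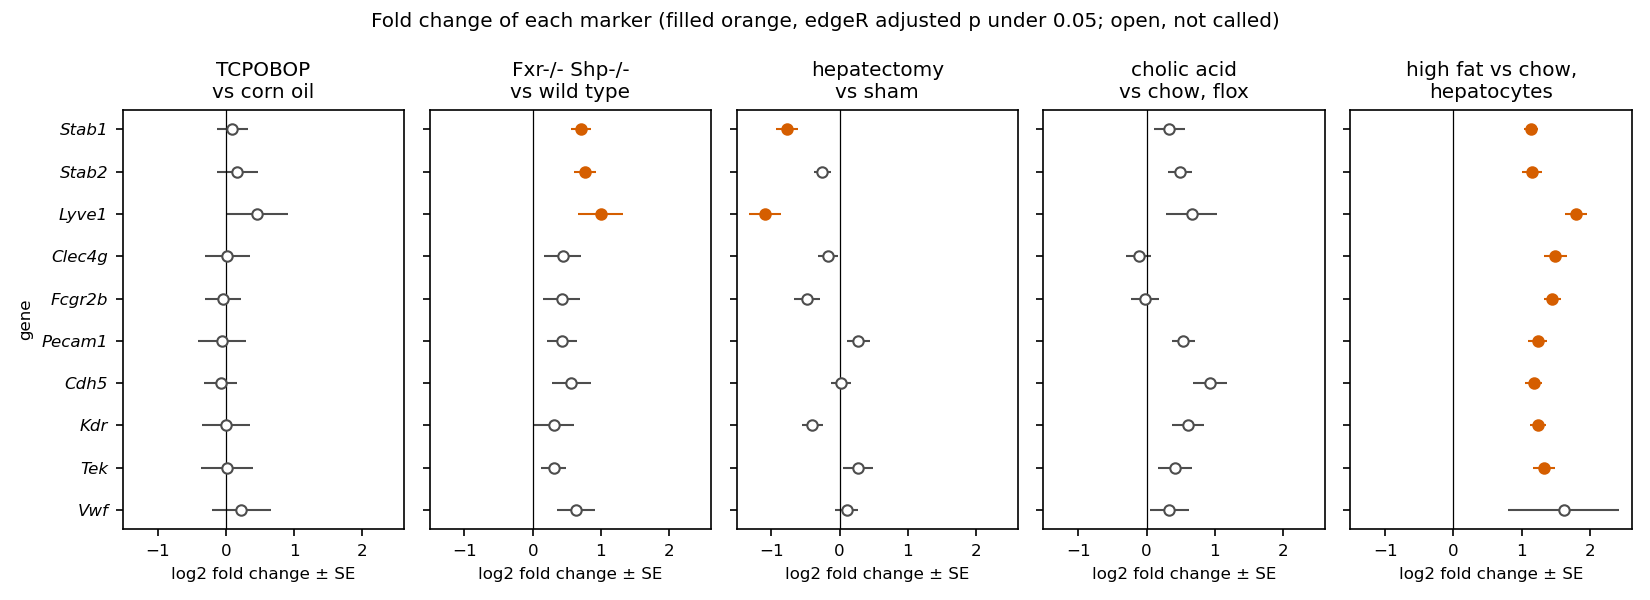
Log2 fold change of each member (horizontal axis, with SE) in the 5 comparisons, from edgeR's quasi-likelihood fits; filled orange points have an adjusted p under 0.05 and open points do not. Of the 10 members, 3 were called in the double knockout, 2 after hepatectomy, 9 in high fat hepatocytes, and 0 with cholic acid or TCPOBOP.

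The shares called in the other vascular lists, 9 of 18, 4 of 8, 3 of 8, 6 of 12 and 7 of 14, were near the 40.4% of all genes, so nothing particular to these lists is read from them. Of 18 further general endothelial genes, 9 rose and 0 fell (median log2 fold change 0.62), led by Ecscr, an endothelial surface protein (1.47 ± 0.34), and the transcription factor Sox7 (1.33 ± 0.38). Of 8 tested genes of continuous or activated endothelium, 4 rose, with Cd34 at 0.755 to 1.13 CPM in wild type and 2.62 to 4.08 CPM in the knockout (1.85 ± 0.27) and the anticoagulant receptor Thbd at 1.26 ± 0.22. Among the 8 tested further sinusoidal genes, 2 rose (the transcription factors Gata4, 0.69 ± 0.13, and Maf, 0.54 ± 0.19) and Ehd3, a membrane trafficking protein, fell (-0.63 ± 0.21).

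In the VEGF and angiopoietin pathways, 4 of 12 tested genes rose and 2 fell. The coreceptor Nrp2 went from 6.65 to 7.72 CPM in wild type to 21.0 to 27.4 CPM in the knockout (1.73 ± 0.14), and the ligand Angpt2 rose by 1.28 ± 0.40. Nrp1, the coreceptor for VEGF-A, was 51.9 to 74.2 CPM and 23.2 to 35.2 CPM (-1.07 ± 0.18), and Vegfa fell by 0.61 on the log2 scale. Of 14 angiocrine and Notch genes 7 rose, with the receptor Notch1 at 1.65 ± 0.29 and endothelial nitric oxide synthase, Nos3, at 1.12 ± 0.17. None of the 14 fell. Of the 27 named genes outside the members, 15 kept their call under all other settings and without any 1 library. Of the other 12, Sox7, Maf, Ehd3, Angpt2 and Vegfa are vascular, and Vsig4, C1qc, Marco, Pf4, Tat, Ccnb1 and Top2a are described next. Pf4 kept its call in 0 of the 6 fits without 1 library, and Maf and Tat in 1 of 6.

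Markers of other cells were also called, beside the 40.4% of all genes called in either direction. The macrophage list, with 2 of 10 genes raised and 1 lowered, and the hepatocyte and blood cell lists were near or below that share. Nothing particular to these 3 lists is read from their counts. Of 9 stellate cell genes, 6 rose and 1 fell, and their summed level was 188 to 310 CPM in wild type and 422 to 479 CPM in the knockout, with the collagens Col1a1 (2.39 ± 0.29) and Col3a1 (2.00 ± 0.28) highest among the rises. Hhip, a hedgehog-binding protein in the same list, was 1.31 to 1.64 CPM in wild type and at or below 0.0437 CPM in the knockout. The macrophage list summed to 244 to 528 CPM and 361 to 712 CPM, which overlap, with Vsig4 (1.00 ± 0.27) and C1qc (0.64 ± 0.22) raised and Marco (-1.70 ± 0.57) lowered. Bile duct genes rose in 4 of 5 (Spp1 1.68 ± 0.30, Epcam 1.53 ± 0.25), as did the neutrophil gene S100a8 (5.07 ± 0.50) and the platelet gene Pf4 (1.06 ± 0.36), 2 of 5 tested blood cell genes. Hepatocyte genes fell in 3 of 7 (Tat -1.30 ± 0.43, Hnf4a -0.78 ± 0.13), and all 4 cell cycle genes rose (Ccnb1 2.24 ± 0.53, Top2a 2.15 ± 0.39). Their part in the members' rise, and that of the share of reads not aligned uniquely, was not tested.

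The hepatectomy comparison asks which members differ in the regenerating liver at 48 h. Stab1 and Lyve1 fell and 0 members rose (edgeR adjusted p under 0.05), where 30.7% of the 13753 genes tested were called. The 2 of 10 are below that background share. All 5 sinusoidal members had a log2 fold change below 0, with a median of -0.48, and 3 of the 4 general members one above 0, with a median of 0.14. Of all genes tested, 51.3% were above 0, with a median of 0.01.

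Stab1 was 59.3, 58.8 and 38.2 CPM in sham livers and 31.7, 29.4 and 30.4 CPM after hepatectomy. The groups did not overlap, although sham library 3 was well below the other two, and the log2 fold change was -0.78 ± 0.16 (edgeR adjusted p 0.00881). Lyve1 was 10.7, 14.1 and 10.9 CPM in sham and 7.15, 5.90 and 3.77 CPM after hepatectomy. It also did not overlap, and its log2 fold change was -1.09 ± 0.23 (edgeR adjusted p 0.00998). Both calls held under each of the 7 other settings and in each of the 6 fits without 1 library.

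The related stabilin, Stab2, was 69.8, 71.9 and 53.7 CPM in sham and 57.4, 56.3 and 50.7 CPM after hepatectomy. These overlap, and its log2 fold change of -0.25 ± 0.12 did not pass the test (edgeR adjusted p 0.149). Kdr, the main receptor for VEGF-A, was 62.5, 60.6 and 40.1 CPM in sham and 42.3, 40.3 and 41.7 CPM after hepatectomy (-0.40 ± 0.16, edgeR adjusted p 0.0902). Fcgr2b had -0.48 ± 0.19 (edgeR adjusted p 0.0915) and Clec4g -0.17 ± 0.14 (edgeR adjusted p 0.393). The remaining general members were near or above 0, with Pecam1 at 0.27 ± 0.17, Tek at 0.27 ± 0.22 and Cdh5 at 0.02 ± 0.15, and Vwf had 0.10 ± 0.17. Without sham library 3, the lowest of its group, Kdr (-0.58), Stab2 (-0.38) and Fcgr2b (-0.65) were called as well, which makes 5 members.

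Calls in the other vascular lists stand beside the 30.7% of all genes called in either direction. The median log2 fold change was -0.34 in the further sinusoidal list and -0.36 in the VEGF and angiopoietin list. It was 0.03 for further general, 0.35 for continuous or activated, and 0.32 for angiocrine and Notch genes. Of 9 further sinusoidal genes only Oit3, a secreted marker of these cells, fell (26.5, 27.0 and 16.5 CPM in sham against 16.6, 12.3 and 12.6 CPM, -0.76 ± 0.20), and 0 rose. Of 18 further general genes 2 rose (Ecscr 1.13 ± 0.18, Sox17 0.66 ± 0.20) and 1, the transcription factor Erg, fell (-0.54 ± 0.16). Continuous or activated endothelial genes rose in 3 of 8 tested, led by Thbd (3.50 to 4.36 CPM in sham, 7.90 to 12.7 CPM after hepatectomy, 1.33 ± 0.20) and the adhesion molecule Icam1 (1.12 ± 0.13). The ligands Vegfa (150 to 179 CPM in sham, 96.0 to 104 CPM after hepatectomy, -0.68 ± 0.09) and Vegfb (-0.52 ± 0.14) were the 2 of 12 VEGF and angiopoietin genes that fell.

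Angiocrine and Notch genes rose in 5 and fell in 2 of 13 tested. Wnt9b, a Wnt ligand of central vein endothelium, was 0.807 to 1.45 CPM in sham and 3.96 to 4.48 CPM after hepatectomy (1.79 ± 0.23), and the Notch ligand Jag1 rose by 0.73 ± 0.22. The Notch ligand Dll4 (-0.95 ± 0.23) and Bmp2, which signals hepcidin production in hepatocytes (-0.65 ± 0.15), fell. Of 20 named genes outside the members, 8 kept their call under all other settings and without any 1 library, namely Vegfa, Wnt9b, Ecscr, Thbd, Icam1, Tat, Ccnb1 and Mki67. All 4 cell cycle genes rose (Ccnb1 6.01 ± 0.32, Mki67 5.56 ± 0.29).

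The sums of 2 other cell lists overlapped between these groups. The macrophage sum was 200 to 325 CPM in sham and 260 to 396 CPM after hepatectomy, and the stellate sum 169 to 222 CPM and 206 to 238 CPM. Of 10 macrophage genes 1 rose (Marco 2.00 ± 0.48), with a list median of 0.04. Of 9 stellate genes 2 rose (Col1a1 0.95 ± 0.19, Col3a1 0.68 ± 0.14), with a median of 0.16. Of 5 bile duct genes 1 rose (Krt19 0.88 ± 0.25), with a range from -0.52 to 1.13. None of these 3 lists had a gene that fell. Hepatocyte genes fell in 4 of 7 (Tat -1.26 ± 0.27, Alb -0.37 ± 0.11). Their part in the fall of Stab1 and Lyve1 was not tested.

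The cholic acid comparison asks what a bile acid diet changes in the floxed mice. Of the 10 members, 0 were called by edgeR at an adjusted p under 0.05, against 4.77% of the 12577 genes tested. An unadjusted edgeR p under 0.05 was found for 4 members, beside 2904 of the 12577 genes. Cdh5, VE-cadherin, was 13.3, 11.8 and 9.77 CPM on chow and 19.4, 17.5 and 30.1 CPM on cholic acid, without overlap, and its log2 fold change was 0.93 ± 0.25 (edgeR adjusted p 0.0705). DESeq2's Wald test called it at an adjusted p of 0.0155, and it was also called by edgeR without the filter on low counts (adjusted p 0.0300) and in a single fit over all 26 libraries (adjusted p 0.0137).

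Pecam1 was 9.27, 10.3 and 11.5 CPM on chow and 16.1, 13.7 and 15.7 CPM on cholic acid. Stab2 was 22.6, 22.2 and 22.8 CPM and then 30.4, 27.0 and 38.4 CPM. Neither overlapped, but neither passed the test (0.54 ± 0.17, edgeR adjusted p 0.110, and 0.49 ± 0.18, edgeR adjusted p 0.146). Pecam1 was called without chow library 3 (0.62, edgeR adjusted p 0.0486) and with scaling by library size only (0.73, edgeR adjusted p 0.0490). Kdr had 0.61 ± 0.23, Lyve1 0.66 ± 0.38 and Tek 0.41 ± 0.25, while the sinusoidal members Clec4g (-0.12 ± 0.18) and Fcgr2b (-0.02 ± 0.20) were near 0. The median over the 10 was 0.45, beside 0.01 over all genes.

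Of the other vascular lists, 1 of 14 angiocrine and Notch genes rose, the ephrin receptor Ephb4 (14.5 to 20.8 CPM on chow, 31.0 to 37.4 CPM on cholic acid, 0.97 ± 0.19). Icam1 rose among 7 tested continuous or activated genes (0.95 ± 0.18, edgeR adjusted p 0.0243, and 0.0545 with the replicate number as a block). None of 11 VEGF and angiopoietin, 8 sinusoidal or 18 general endothelial genes was called by edgeR. Of them, 4, 1 and 0 had an unadjusted p under 0.05, beside 2904 of the 12577 genes tested. The macrophage receptor Csf1r (1.36 ± 0.24), the stellate genes Hhip (1.83 ± 0.37) and Reln (1.16 ± 0.23, block adjusted p 0.0577) and Ccnb1 (3.75 ± 0.63) rose. All 6 of these genes lost their call in at least 1 fit without 1 library. The macrophage sum was 141 to 372 CPM on chow and 316 to 507 CPM on cholic acid, and the stellate sum 113 to 222 CPM and 192 to 324 CPM.

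**Figure D3:**
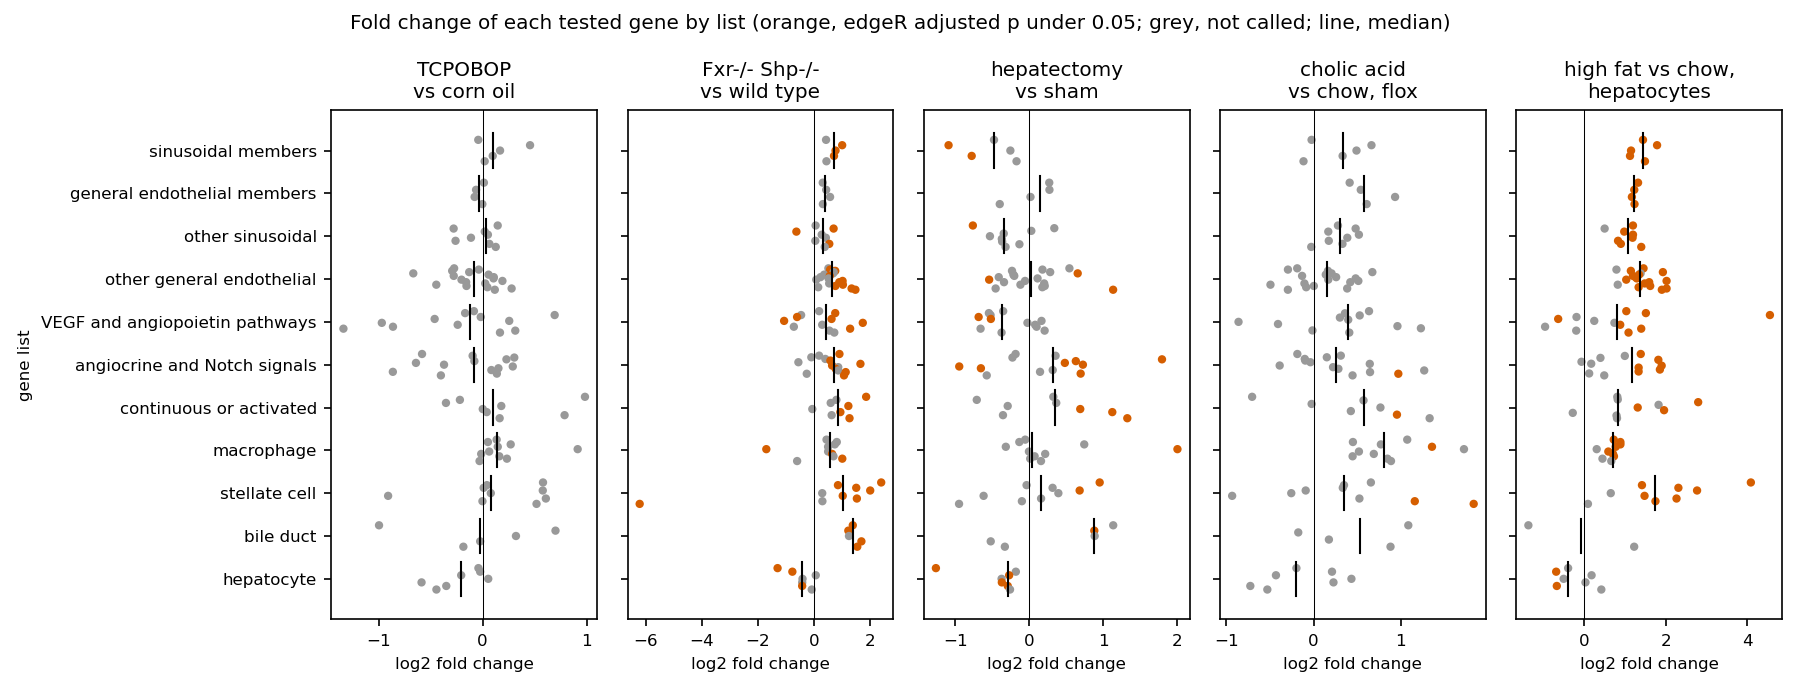
Log2 fold change (horizontal axis, scale differs by panel) of each tested gene of 11 lists in the 5 comparisons; orange points have an edgeR adjusted p under 0.05, grey points do not, and the line is the list median. In high fat hepatocytes the members, the other endothelial lists, macrophage and stellate cell genes all have a median above 0.

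Whether effects differed between whole-liver experiments was tested directly. The hepatectomy effect was below the knockout effect for Stab1 (-1.50 ± 0.24, edgeR adjusted p 0.000428), Stab2 (-1.03 ± 0.22, edgeR adjusted p 0.00302) and Lyve1 (-2.10 ± 0.45, edgeR adjusted p 0.00350), 3 of the 10 members, where 31.5% of 14755 genes were called. These 3 calls held under 7 other settings and in all 12 fits without 1 library. The 7 other members had differences from -0.91 ± 0.37 (Fcgr2b, edgeR adjusted p 0.0759) to -0.05 ± 0.32 (Tek).

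Against the cholic acid effect, the hepatectomy effect was lower for 4 of 10 members, where 13.0% of 13985 genes were called. These were Stab1 (-1.11 ± 0.30, edgeR adjusted p 0.0290), Stab2 (-0.74 ± 0.21, edgeR adjusted p 0.0379), Lyve1 (-1.75 ± 0.49, edgeR adjusted p 0.0335) and Kdr (-1.0 ± 0.30, edgeR adjusted p 0.0448). These calls were near the threshold. Of the 4, 0 remained without sham library 1 or 2, hepatectomy library 2 or 3, or cholic acid library 3. With 1 other library left out, 1 member was called without chow library 1, chow library 2 or cholic acid library 1, 2 without hepatectomy library 1, and 3 without sham library 3. Over the 12 fits without 1 library the difference was -1.29 to -0.96 for Stab1 and -0.86 to -0.59 for Stab2. It was -2.03 to -1.31 for Lyve1 and -1.19 to -0.86 for Kdr. With the replicate number as a block, Stab1 lost its call (-1.07, edgeR adjusted p 0.0709). Stab2 lost its call with scaling by library size only (edgeR adjusted p 0.0541), and Stab2 and Kdr lost theirs in the single fit over all 26 libraries (edgeR adjusted p 0.0541 and 0.0812). Cdh5 was called by DESeq2's Wald test (adjusted p 0.0320) and by edgeR without the filter on low counts (adjusted p 0.0476). Between the knockout and cholic acid effects, 0 members were called by edgeR (0 with an unadjusted p under 0.05, and 0 by DESeq2), against 13.9% of 13935 genes, with differences from -0.36 ± 0.42 (Cdh5) to 0.56 ± 0.36 (Clec4g).

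The balance of the sinusoidal members against the general ones was described per library, as the mean log2 level of Stab1, Stab2, Lyve1, Clec4g and Fcgr2b minus that of Pecam1, Cdh5, Kdr and Tek. A level shared by all members of a library cancels in this difference, and it is given with no test. It was 0.89 ± 0.10 (SD, n = 3) in sham and 0.29 ± 0.10 (SD, n = 3) after hepatectomy, with ranges of 0.79 to 1.00 and 0.21 to 0.40. On chow it was 0.86 ± 0.09 (SD, n = 3) in floxed mice, and on cholic acid 0.51 ± 0.08 (SD, n = 3), again without overlap. The sinusoidal members were thus lower relative to the general ones in both treated groups.

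In the double knockout the balance lay the other way, at 0.75 ± 0.08 (SD, n = 3) against 0.52 ± 0.10 (SD, n = 3) in wild type, and the 3 knockout libraries were above the 3 of wild type. High fat hepatocytes had 1.05 and 1.02 against 0.857 and 0.883 on chow. With TCPOBOP it was 0.657 and 0.490, against 0.419 and 0.292 under the corn oil label. Because the control groups themselves ranged from 0.36 to 0.89, the value is read only within an experiment. The further sinusoidal and general lists had median log2 fold changes in the opposite order in 3 comparisons. These were 0.32 and 0.62 in the knockout, 1.09 and 1.37 with high fat, and 0.30 and 0.15 with cholic acid. After hepatectomy (-0.34 and 0.03) and with TCPOBOP (0.04 and -0.08) the order was that of the balance. The balance therefore describes the members used and not sinusoidal genes in general.

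**Figure D4:**
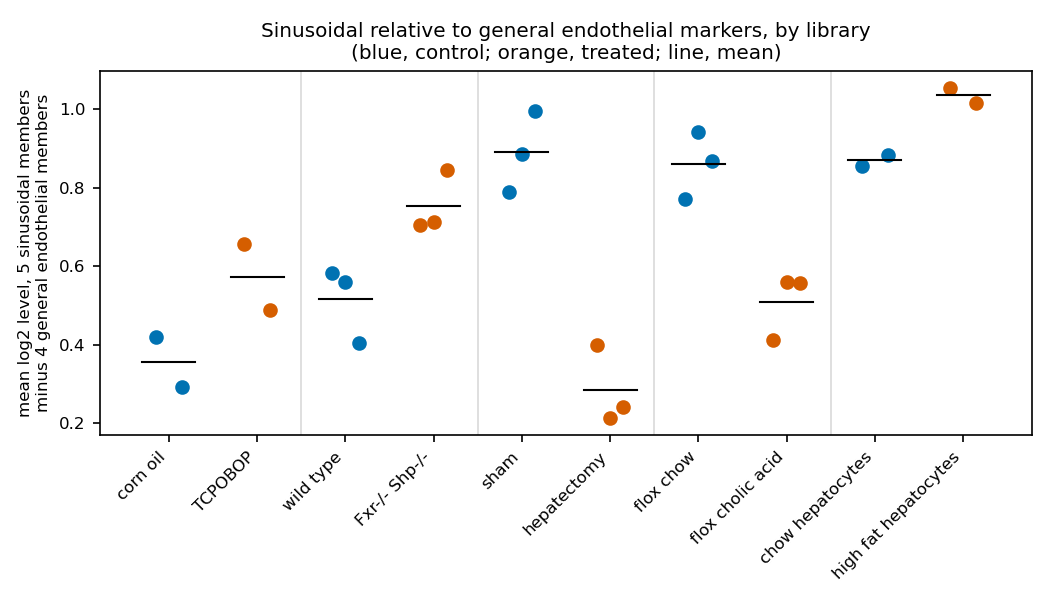
Mean log2 level of the 5 sinusoidal members minus that of the 4 general endothelial members (vertical axis, log2 units) in each library; blue marks controls, orange treated groups, and lines are group means. Hepatectomy libraries (0.21 to 0.40) lie below sham libraries (0.79 to 1.00), cholic acid below chow, and double knockout above wild type.

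The high fat comparison asks what the diet changes in isolated hepatocytes, in which the endothelial members were nevertheless counted. On chow the mean of each member was lower than in the whole-liver control groups, though by little for Stab2. The median ratio of whole-liver control to chow hepatocytes was 2.84 over the 10 members against the lowest of the 4 whole-liver control groups and 5.55 against the highest. Vwf had the largest ratio, 31.3 to 47.1, and Stab2 the smallest, 1.13 to 3.63. For Stab2 both chow hepatocyte libraries lay within the range of the wild-type livers. Stellate genes differed by a median ratio of 13.1 to 23.0, macrophage genes by 4.26 to 6.92, and hepatocyte genes by 0.722 to 1.28. The whole-liver control groups also differ from the hepatocytes in age, 3 of the 4 in feeding (fed ad libitum, where the floxed chow mice and the hepatocyte donors were fasted), 1 of the 4 in strain and 1 in genotype (floxed), so these ratios have no test. Corn oil, 1 of the 4, also includes the library that carried Cyp2b10 at the level of the TCPOBOP libraries.

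With high fat diet, 9 of the 10 members rose and 0 fell (edgeR adjusted p from 0.00340 to 0.00755), where 24.0% of the 13892 genes tested were called. Every high fat library was above every chow library for these 9. The share of all genes that separated in this way was not computed, so nothing is read from that separation. The median log2 fold change over the 10 was 1.28, beside 0.01 over all genes, and the 9 ranged from 1.13 ± 0.10 (Stab1) to 1.79 ± 0.16 (Lyve1).

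Stab2 was 19.4 and 16.6 CPM on chow and 45.8 and 35.8 CPM on high fat (1.15 ± 0.15). Lyve1 was 2.11 and 1.82 CPM and then 7.11 and 6.76 CPM. Clec4g was 5.72 and 7.10 CPM and then 16.4 and 20.5 CPM (1.49 ± 0.17). In these sinusoidal genes the 2 libraries of each diet lay close together and far from the other diet. Fcgr2b rose by 1.45 ± 0.13. Among the general members, Pecam1 was 3.10 and 3.17 CPM and then 7.37 and 7.70 CPM (1.23 ± 0.14), and Kdr 9.84 and 9.37 CPM and then 21.6 and 24.7 CPM (1.24 ± 0.11). Cdh5 and Tek rose by 1.18 ± 0.13 and 1.33 ± 0.16. Vwf was the exception, at 5 and 10 counts on chow and 47 and 10 on high fat (1.61 ± 0.82, edgeR adjusted p 0.197), with few counts behind 3 of the 4 values.

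Most genes of 2 further endothelial lists rose too. Of 18 further general endothelial genes 15 rose (Sox7 2.02 ± 0.27, the tight junction gene Cldn5 2.02 ± 0.37), and of 8 tested sinusoidal genes 7 rose (the orphan receptor Gpr182 1.40 ± 0.20, the secreted nuclease Dnase1l3 1.20 ± 0.10). In the VEGF and angiopoietin pathways 6 of 12 rose, led among those with more than 3 counts on chow by the VEGF-C receptor Flt4 (1.52 ± 0.17), and Vegfb fell (-0.63 ± 0.13). The angiopoietin ligand Angpt1 was 0.0195 and 0 CPM on chow and 0.196 and 0.339 CPM on high fat. Of 12 tested angiocrine and Notch genes 6 rose (Dll4 1.90 ± 0.27, the hepatocyte growth factor Hgf 1.86 ± 0.20). Of 9 continuous or activated genes 3 rose, with the pore diaphragm protein Plvap at 1.96 ± 0.24 and the adhesion molecule Sele at 0.0586 and 0.0520 CPM on chow and 0.497 and 0.309 CPM on high fat.

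Stellate genes rose in 7 of 9, with a median of 1.75, and summed to 10.6 to 17.6 CPM on chow and 42.9 to 46.9 CPM on high fat. Col3a1 rose by 2.77 ± 0.39, and Col1a1 was 0.0586 and 0.0347 CPM on chow and 0.919 and 0.741 CPM on high fat. Macrophage genes rose in 7 of 10, with a median of 0.72 (Cd5l 0.89 ± 0.11, Clec4f 0.89 ± 0.13), and summed to 53.4 to 57.8 CPM and 91.4 to 103 CPM. The leukocyte gene Ptprc rose by 1.17 ± 0.32, and 2 of 4 cell cycle genes rose (Mki67 1.63 ± 0.41, Ccnb1 0.0586 and 0.0520 CPM on chow and 0.527 and 0.324 CPM on high fat). Hepatocyte genes rose in 0 and fell in 2 of 7 (Hnf4a -0.68 ± 0.14, Apoa1 -0.66 ± 0.13). Of the bile duct genes 2 of 5 were tested and 0 were called, with Sox9 at -1.36 ± 0.39 (edgeR adjusted p 0.0539) and Spp1 at 1.23 ± 0.40 (edgeR adjusted p 0.0715), and Krt19 and Epcam were at 0 in both chow libraries. Of the 20 named genes outside the members, 9 kept their call under all other settings and without any 1 library, namely Flt4, Dll4, Hgf, Gpr182, Dnase1l3, Sox7, Plvap, Col1a1 and Col3a1. Ptprc, Vegfb and Sele were called in 1 of 4 fits without 1 library, Angpt1 in 1 of 3, and Mki67 and Ccnb1 in 2 of 4. The part of carried-over cells in the members' rise, and that of the share of reads not aligned uniquely, was not tested.

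The TCPOBOP comparison draws no direction, because the library labelled corn oil 1 carried the CAR target at the level of the treated libraries. Of the 12785 genes tested by edgeR, 0% were called and 751 had an unadjusted p under 0.05, whereas DESeq2 called 109. Of the 10 members, 0 were called, 0 had an unadjusted p under 0.05, and all 10 overlapped between the groups. Their log2 fold changes ranged from -0.08 ± 0.24 (Cdh5) to 0.46 ± 0.45 (Lyve1). Stab2, for example, was 33.4 and 29.9 CPM under the corn oil label, and 25.8 and 45.7 CPM after TCPOBOP. Leaving out a library labelled corn oil gave 1233 called genes (without library 1) and 413 (without library 2), and 0 members. Each of these fits has 1 control library, assumed to vary like the TCPOBOP pair, in which all 10 members were lowest in library 1 and highest in library 2, so nothing is read from the 0 members.

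The 10 genes outside all lists nearest to the members in pattern were found by the root mean square difference from the members' median over the 26 libraries, with each library set against its own control group. They were Clec14a, Rgl1, Npr1, Sema6a, Tinagl1, Adcy4, Cd38, Hspg2, Adgrf5 and Cd300lg, at 0.159 to 0.221 log2 units, where the median of 10473 ranked genes was 0.590. Among the members themselves, Stab2 (0.152) and Kdr (0.158) followed the common pattern most closely, and Vwf (0.438) and Lyve1 (0.529) least. Each member is part of the median it is set against, so these distances are not comparable with those of the outside genes. Clec14a, an endothelial C-type lectin, had log2 fold changes of 0.37 in the double knockout, -0.17 after hepatectomy, 1.57 with high fat and 0.57 with cholic acid.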

How the data were processed

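RNA of mouse liver or isolated hepatocytes was sequenced as stranded mRNA libraries, per the labels' protocols. The authors deposited 1 table of raw read counts per gene. Per the submitters' processing notes the tools included bcl2fastq 2.17.1.14, Trimmomatic, STAR 2.4.2a, Picard 1.119 and HTSeq, with the builds GRCm38 and mm10. The annotation and strand setting of the counting are not given in the sources used here. The 5 summary lines of the table, which took a median of 27.8% of reads, stayed out of library sizes and tests. Symbols matched 47224 of 47643 identifiers.

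Groups came from the sample titles. Each treated group was tested against its own control with edgeR 4.0.16 (limma 3.58.1, R 4.3.3): filterByExpr (minimum count 10, minimum total 15), TMM scaling, the quasi-likelihood test, and Benjamini-Hochberg adjustment over all genes tested, with calls at 0.05. The SE of a log2 fold change was taken as its size over the square root of F. Differences of effects were interaction terms over 12 libraries. The balance of member classes used log2(CPM + 0.1). The procedure was tested on simulated counts.

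The members and gene lists were chosen with earlier results of these data known. Named were all members, from each other list and comparison the 2 called genes that rose most and the 2 that fell most, and the 10 nearest genes with an average log2 CPM of at least 1. Replicate numbers were checked as pairs by the correlation of deviations from group means. In the cholic acid experiment all 3 same-numbered pairs exceeded 0.1 (0.132, 0.154 and 0.103), from the data and not the design, and the blocked value is given where it changes a call. Other settings were DESeq2 size factors, library size only, DESeq2 1.42.0's Wald test, no filter, a filter at a mean count of 10, a fit to all 26 libraries together, the replicate block, a pseudocount of 0.5 CPM, and leaving out each library.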

Additional observations from a re-analysis of the deposited data

Results flagged for a closer look

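The direct test found that the hepatectomy effect and the knockout effect differed for Stab1 (-1.50 on the log2 scale), Stab2 (-1.03) and Lyve1 (-2.10). These are 3 of 10 members, where 31.5% of all genes were called, so nothing particular to the members is read from that count. The hepatectomy and cholic acid effects differed for Kdr (-1.0), Stab1 (-1.11), Stab2 (-0.74) and Lyve1 (-1.75), where 13.0% of all genes were called. Of these 4 calls, 0 remained without sham library 1, sham library 2, hepatectomy library 2, hepatectomy library 3 or cholic acid library 3. The stabilins and Lyve1 stand in both sets. The 2 sets share the sham and hepatectomy libraries. The hepatectomy mice are of another strain and age range than the knockout and cholic acid mice, and the cholic acid mice were also fasted and floxed. Strain, age, feeding and floxed alleles thus cannot be told apart from the operation in these differences. Sham livers are labelled 0 h, so liver removal and time after surgery cannot be told apart either.

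No group held 4 or more libraries, so single libraries were not tested for standing apart within a group.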

How the results depend on the processing

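Limits. With 2 or 3 libraries a group, leaving out a single library changed several calls. In the TCPOBOP and high fat experiments, leaving out 1 library leaves an arm of 1, which is assumed to vary like the other arm. The high fat rise of 9 members and the hepatectomy fall of Stab1 and Lyve1 kept their calls under every setting run, and the hepatectomy effect stayed below the knockout effect for Stab1, Stab2 and Lyve1. The cause of the changes below was not tested.

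Counts of members called. Scaling by library size only moved the median of all genes by 0.20 (double knockout), 0.18 (hepatectomy), 0.13 (high fat) and 0.18 (cholic acid) on the log2 scale. It called 5 members in the knockout, and the share of called genes that rose became 76.4%, 78.0%, 74.2% and 69.6% in these comparisons, against 51.9%, 53.4%, 53.7% and 47.5%. In the single fit over all 26 libraries it was 68.4% for high fat. With cholic acid, 1 member was called with library size only, DESeq2's Wald test, no filter, and all 26 libraries in a single fit. The last called 2 members for hepatectomy minus cholic acid, without Kdr and Stab2. Stab2 also lost its call there with library size only, and Cdh5 gained one with DESeq2's Wald test and with no filter. Leaving out 1 library gave 2 to 6 called members in the knockout, 2 to 5 after hepatectomy, 0 to 1 with cholic acid, 0 to 5 for hepatectomy minus cholic acid and 3 to 5 for hepatectomy minus knockout.

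Replicate block. In the knockout Lyve1 lost its call (0.94, edgeR adjusted p 0.0704), leaving 2 members, and Stab1 lost its call for hepatectomy minus cholic acid (-1.07). No other member changed its call. The same-numbered libraries correlated at -0.176, -0.0379 and -0.0191 in the knockout, at -0.0754, 0.0786 and -0.00372 in the hepatectomy experiment, and at 0.103 and 0.109 in the TCPOBOP and high fat experiments, where 2 pairs do not decide.

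Reversed signs, none of them of a called member. With TCPOBOP, Kdr had 0.00329 with DESeq2 size factors, 0.00353 with DESeq2's Wald test, 0.00328 without the filter and 0.00290 in the single fit, Clec4g -0.0632 (library size only) and -0.0209 (replicate block), and Tek -0.0724 and -0.0728 in these. With library size only, Clec4g had 0.00851 after hepatectomy and 0.0736 with cholic acid, and Fcgr2b 0.17 with cholic acid. Without 1 library, the TCPOBOP range was -0.42 to 0.23 for Cdh5, -0.44 to 0.40 for Clec4g, -0.43 to 0.29 for Fcgr2b, -0.58 to 0.43 for Kdr, -0.64 to 0.37 for Pecam1, -0.21 to 0.38 for Stab1, -0.30 to 0.54 for Stab2, -0.59 to 0.46 for Tek and -0.24 to 0.93 for Vwf. After hepatectomy Cdh5 ranged from -0.13 to 0.10 and Vwf from -0.0259 to 0.24, and with cholic acid Clec4g from -0.22 to 0.0364 and Fcgr2b from -0.19 to 0.14. For hepatectomy minus cholic acid, Clec4g ranged from -0.21 to 0.10, Tek from -0.35 to 0.0345 and Vwf from -0.39 to 0.0162. For hepatectomy minus knockout, Pecam1 ranged from -0.42 to 0.0497 and Tek from -0.26 to 0.12, and for knockout minus cholic acid from -0.32 to 0.15 and from -0.27 to 0.0815.

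Counts over all genes. With cholic acid, 600 genes became 1445 (DESeq2), 955 (no filter) and 3132 (single fit), and 189 to 1345 without 1 library. High fat went from 3333 to 1735 in the single fit and to 1141 and 1793 without either high fat library. Hepatectomy went from 4225 to 2554 and 2575 without sham library 2 or 3. Hepatectomy minus cholic acid went from 1820 to 2749 in the single fit and to 1089 and 1171 without sham library 2 or 3. Knockout minus cholic acid went from 1939 to 2991 in the single fit. With TCPOBOP the single fit called 9 genes.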
